A study of Vitis amurensis with 6 samples.

Results

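Open chromatin sites were not spread evenly along the grape chromosomes, and 25 stretches of 500 kb held an excess of sites that were open in every library. These dense windows are described here in leaves of in vitro Amur grape (Vitis amurensis), a wild relative of the cultivated vine that tolerates hard frost. When the transposase hypersensitive sites (THSs) of 6 ATAC-seq libraries were merged wherever they shared at least 1 bp, 44710 regions were obtained, and 39746 of them lay on chr1 to chr19. A region with a THS from all 6 libraries is called always-open below. The 19 chromosomes were cut into 864 windows of 500000 bp, and a window was called dense when it held 12 or more always-open regions. All merged regions of the dense windows are members, 1866 in all, of which 377 were always-open and 1489 had a THS in 1 to 5 libraries.

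The cold libraries came from wild-type leaves of one-month-old in vitro plants sampled after 2 h at 4°C (3 libraries), and the control libraries from untreated plants kept at 26°C and sampled at 0 h (3 libraries). Both groups were held under the same light, and the study pooled leaves from several plants for each biological replicate. A control sampled after 2 h at 26°C was not among the libraries, so cold and elapsed time cannot be told apart. The libraries held 13019 to 19537 THSs, and read depth was not used here. Cold replicates 2 and 3 stood apart by narrow THSs, with median widths of 184 and 171 bp, whereas cold replicate 1 had 341 bp and the control libraries had 348 to 384 bp, so the cold and control differences in THS number, share, ratio, covered length and width are also given with cold replicate 1 as the lone cold library, a comparison without a test that was added after the data were seen. THSs under 217 bp, the highest of the 6 narrowest widths, made up 7.10, 63.6 and 68.6% of cold replicates 1, 2 and 3 and 4.40, 0 and 8.76% of control replicates 1, 2 and 3, and an alternative leaves them out of all lists.

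ATAC-seq uses a transposase that cuts and tags DNA where nucleosomes and other proteins leave it exposed. In plants such exposed sites often lie at promoters and at distal regulatory elements, and many of them are open in most cells of a tissue. Sites that are close together on a chromosome can belong to neighbouring genes, to a cluster of related genes or to repeated sequence. The genes and the sequence under the members were not analysed here, so the members are described by position, width, score and presence in the libraries.

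The choice of the windows rested on presence in all 6 libraries, and the numbers of always-open regions are therefore given as a description. Over all windows the median number was 2 and the mean 3.28, and 110 windows had 0. The variance of the number was 3.47 times its mean. The dense windows held 12 to 36 (median 13), and they made up 2.89% of the windows, 13.3% of the always-open regions and 4.69% of all merged regions on these chromosomes. At the threshold, 9 windows with 12 always-open regions fell just inside and 9 with 11 just outside. The windows with 12 held 39 to 100 merged regions (median 70) and those with 11 held 44 to 70 (median 58), so both sides of the threshold overlapped in their total number.

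**Figure D1:**
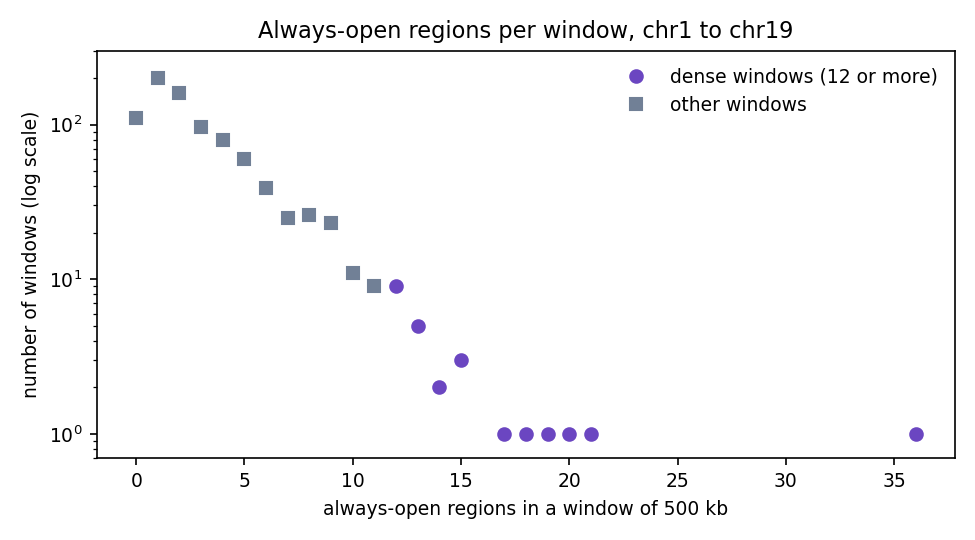
Number of windows of 500 kb (vertical axis, log scale) that hold a given number of always-open regions (horizontal axis), with dense windows as circles and the other windows as squares. The numbers run on without a break through the threshold of 12, and 1 window with 36 always-open regions stands far from the rest.

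Dense windows were found on 11 chromosomes. Chromosome 16 held 5 of them and chromosome 9 held 4, while chromosomes 15 and 18 held 3 each, chromosomes 11, 12 and 14 held 2 each, and chromosomes 2, 6, 10 and 17 held 1 each. Chromosomes 1, 3, 4, 5, 7, 8, 13 and 19 held 0. Of the 25 windows, 6 formed 3 pairs of direct neighbours, on chromosomes 9, 11 and 16. The centre of a dense window lay within 3 Mb of a chromosome end in 9 cases (36.0%), against 27.3% of the other windows, with chromosome ends taken as the last THS. Both ends and middles of chromosomes thus carried dense windows.

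The densest stretch was on chromosome 9. The window chr9:14500001-15000000 held 36 always-open regions among 87 merged regions (41.4%), the highest share of the 25 windows. Its THSs numbered 58, 72 and 71 in cold replicates 1, 2 and 3, and 62, 55 and 53 in control replicates 1, 2 and 3. Its neighbour chr9:14000001-14500000 held 19 always-open regions among 97. That window had 46, 56 and 52 THSs in the cold libraries and 63, 55 and 49 in the control libraries. Together the pair carried 55 always-open regions in chr9:14000001-15000000. In both windows the ranges of the cold and control libraries overlapped.

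Within the first chr9 window 28 of the 36 always-open regions had another one within 5000 bp. The tightest group had 13 always-open regions in 43.2 kb (chr9:14519456-14562609), with midpoints 716 to 8431 bp apart (median 2913.5 bp). Merged regions covered 28.4% of this stretch. Their scores, taken as the median over libraries of the highest −log10 q in a region, ran from 18.1 to 274.1 (median 52.1). A second compact group lay on chromosome 6, where 9 of the 12 always-open regions of chr6:9500001-10000000 lay within 31.5 kb (chr6:9552699-9584195). Midpoints there were 1835 to 7022 bp apart, and scores ran from 11 to 197.1. In both groups sites of high and moderate score were mixed.

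Chromosome 16 held the windows of ranks 2 and 3. The window chr16:10500001-11000000 had 21 always-open regions among 100, and 9 of them lay in 48.9 kb near its end. It held 46, 63 and 57 THSs in the cold libraries and 59, 57 and 39 in the control libraries. In chr16:1500001-2000000, 20 of 87 regions were always-open. This window held 45, 57 and 57 THSs in the cold libraries and 50, 50 and 34 in the control libraries, and the 2 ranges overlapped although its ratio of group means, 1.19, was the highest of the 25. Its direct neighbour chr16:1000001-1500000 held 15 among 78. On chromosome 12, chr12:21000001-21500000 held 18 among 69, with 35, 43 and 36 THSs in the cold libraries and 47, 44 and 35 in the control libraries. The remaining windows of the first 10 were chr12:12000001-12500000 (17 among 82), chr2:16000001-16500000 (15 among 68), chr15:9000001-9500000 (15 among 61) and chr10:15500001-16000000 (14 among 88).

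**Figure D2:**
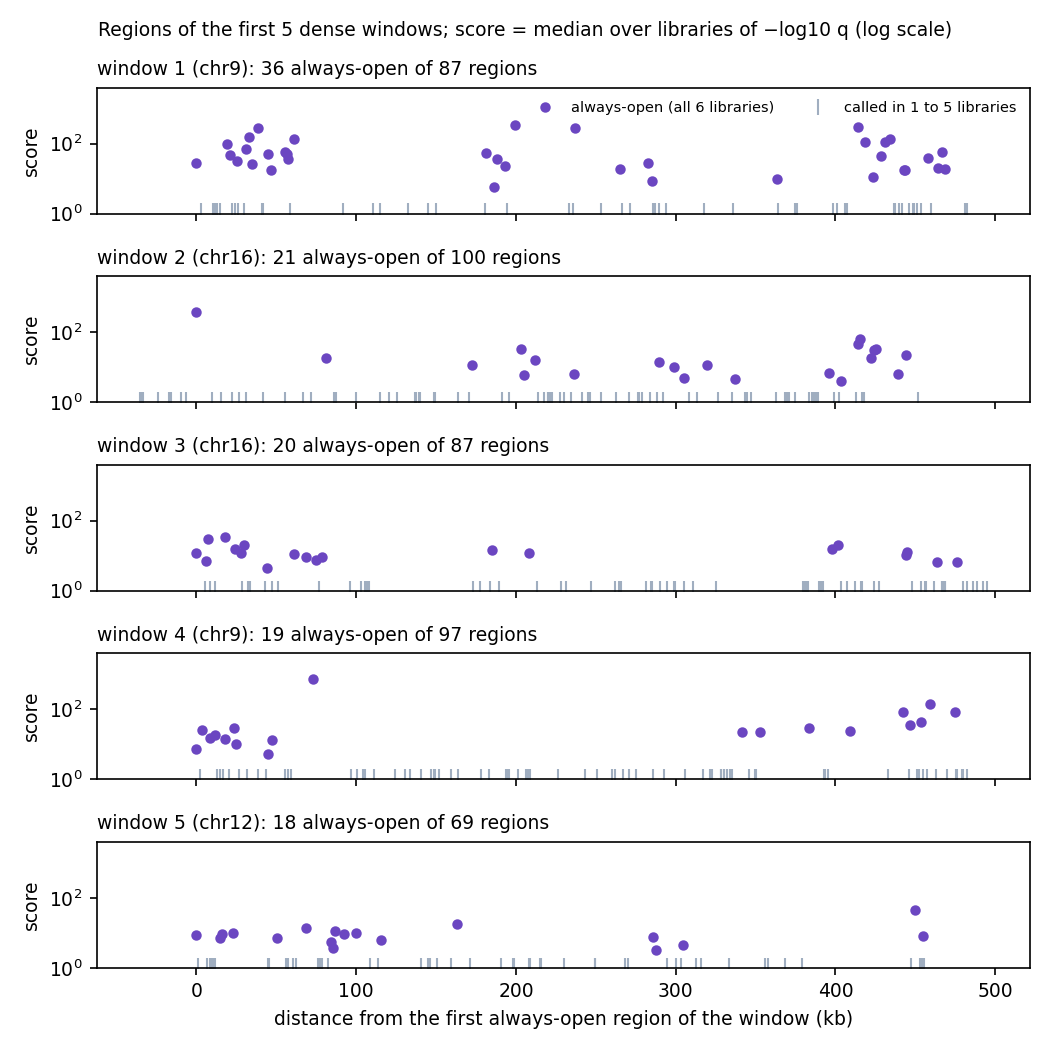
Regions of the 5 dense windows with the most always-open regions, placed by distance in kb from the first always-open region of the window. Circles give the score of always-open regions (median over the 6 libraries of −log10 q, log scale) and grey ticks mark regions called in 1 to 5 libraries. The tightest group is that of 13 always-open regions in 43.2 kb in the first window, and grouping beyond density was not tested.

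Grouping varied between windows. Of all 377 always-open members, 153 (40.6%) had another one within 5000 bp, against 18.9% of the 2460 always-open regions in the other windows. The median distance between neighbours within a window was 12041 bp in dense windows and 40804 bp in the others. The choice of the windows builds in both differences, since more regions in a window lie closer together, so neither shows grouping beyond density. In 12 of the 25 windows at least 6 always-open regions lay within 50 kb, while in 3 windows no pair lay within 5000 bp. One of these was chr9:9500001-10000000, where 12 of 100 merged regions were always-open, the lowest share of the 25 (12%). The windows differed as much in their total. The most crowded windows held 100 merged regions and the emptiest, chr16:4500001-5000000, held 39, of which 12 were always-open (30.8%).

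The scores of always-open members were compared with those of always-open regions elsewhere. In each library the highest-scoring THS of each always-open region was ranked within its list, and the median percentile over dense windows was set against that over other windows. The rule did not use score or width directly, but both bear on which regions count as always-open. The 25 dense windows became 9 with the score threshold at the median of all lists and 8 without THSs under 217 bp. In cold replicates 1, 2 and 3 the medians were 81.4, 77.7 and 74.2 in dense windows and 82.4, 79.4 and 75.9 in the others. In control replicates 1, 2 and 3 they were 86.8, 87.8 and 81.9 in dense windows and 87.0, 88.5 and 81.9 in the others. The difference was −0.876 ± 0.715 percentile points (SD, n = 6 libraries), negative in 5 of 6 libraries, and did not pass an exact sign-flip permutation test over libraries (two-sided, p = 0.0625, adjusted p = 0.125 over 4 measures). It took the opposite sign, 0.447, when windows had to hold 15 or more, and was −2.68 (exact p = 0.0312) when windows were shifted by 250000 bp. All libraries were read at the same regions, so these p-values measure agreement between libraries and not the spread between windows.

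Very strong sites were few among the members. A median score above 500 was found in 5 of 377 always-open members (1.33%) and in 175 of 2460 always-open regions elsewhere (7.11%), a limit chosen after the values were seen. The highest was chr9:9973409-9973919, which scored 2604, 2122 and 1689 in cold replicates 1, 2 and 3 and 2685, 2292 and 3073 in control replicates 1, 2 and 3. It lay in the chromosome 9 window without close neighbours, and the nearest always-open region was 87900 bp away. The next was chr14:9708894-9709656, with scores of 1845, 2359 and 2071 in the cold libraries and 1898, 1574 and 1961 in the control libraries. Both sites ranked above the 99th percentile in every list, and both stood in windows with low typical scores. The median score of the always-open regions was 6.10 in the window of the first and 8.35 in that of the second. Over the 25 windows this median ran from 5.94 in chr15:1000001-1500000 to 45.9 in chr16:9500001-10000000.

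In each of the 5 windows with the most always-open regions, the region with the highest percentile in its weakest library is named. In chr9:14500001-15000000 this was chr9:14700141-14701672, 1532 bp wide, with scores of 349, 318 and 243 in the cold libraries and 376, 333 and 429 in the control libraries. In chr16:10500001-11000000 it was chr16:10542481-10543448, with 377, 405 and 359 in the cold libraries and 467, 392 and 353 in the control libraries. This site stood alone, 79798 bp from the nearest always-open region. In chr9:14000001-14500000 it was chr9:14087290-14088098, with 787, 672 and 535 in the cold libraries and 886, 712 and 934 in the control libraries. The leading site of chr16:1500001-2000000 was weaker. It was chr16:1518120-1519160, with scores of 38.6, 31.2 and 29.0 in the cold libraries and 48.2, 42.5 and 31.6 in the control libraries. The leading site of chr12:21000001-21500000, chr12:21470469-21471379, had 36.9, 52.2 and 23.1 in the cold libraries and 59.4, 70.7 and 27.2 in the control libraries. Without a common scale across libraries, the scores rank sites within a library and do not measure a change with cold.

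Always-open members were somewhat wider in 4 of 6 libraries. The median width of their THSs was 549, 278.5 and 251 bp in dense windows and 514, 283 and 253 bp in the others in cold replicates 1, 2 and 3. In control replicates 1, 2 and 3 it was 663, 720 and 546 bp in dense windows and 613, 612.5 and 498 bp in the others. The difference was 39.0 ± 41.2 bp (SD, n = 6 libraries, exact sign-flip permutation test, two-sided, p = 0.125, adjusted p = 0.167). With windows of 15 or more it was 87.2 bp (exact p = 0.0312). These p-values too measure agreement between libraries over the same regions and not the spread between windows. The 2 libraries without a positive difference were those with narrow THSs. In them an always-open member was also split into more THSs, 1.41 and 1.38 per region in cold replicates 2 and 3, against 1.12 in cold replicate 1 and 1.07 to 1.11 in the control libraries. The same was seen in the other windows, with 1.31 and 1.32 per always-open region in cold replicates 2 and 3. There cold replicate 1 had 1.09 and the control libraries had 1.05 to 1.09.

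The excess of regions in dense windows differed by the number of libraries that shared them. Regions called in a single library were about as frequent in dense windows (29.7 per window) as in the others (28.3 per window, 1.05-fold). The excess grew with the number of libraries that shared a region. It was 1.72-fold for regions of 2 libraries, 2.00-fold for 3, 2.75-fold for 4 and 3.67-fold for 5, and reached 5.14-fold for the always-open regions on which the choice rested. Among members, 39.8% were called in 1 library and 20.2% in all 6, against 62.8% and 6.49% of the regions in other windows. Single-library members had a median width of 240 bp and always-open members one of 922 bp, against 254 and 803.5 bp in the other windows. All 6 lists entered the choice of the windows, so these counts are a description without a test.

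**Figure D3:**
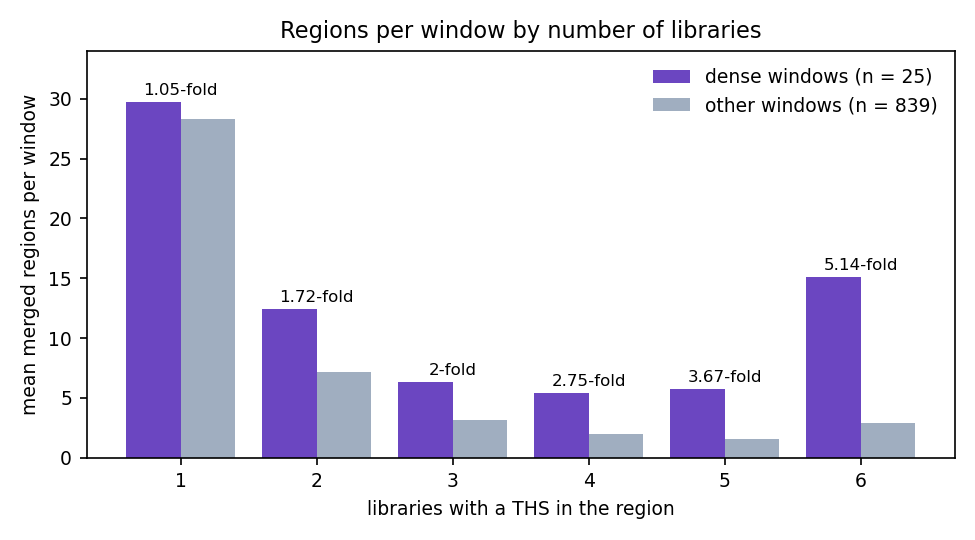
Mean number of merged regions per window (vertical axis) by the number of libraries with a THS in the region (horizontal axis), for 25 dense windows (left bars) and 839 other windows (right bars). The ratio above each pair rises from 1.05-fold at 1 library to 5.14-fold at 6 libraries, the class that defined the dense windows.

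Members called in all libraries but 1 were also counted by the library that lacked them. Of 143 such members, cold replicates 1, 2 and 3 lacked 23, 26 and 48, and control replicates 1, 2 and 3 lacked 5, 5 and 36. Cold replicate 3 and control replicate 3 thus accounted for most of the gaps (33.6% and 25.2%). In the other windows these 2 libraries lacked 35.1% and 19.2% of 1306 regions. Of the 743 members of a single library, control replicate 1 held the most, 200 (26.9%), and control replicate 3 the fewest, 66 (8.88%). In the other windows control replicate 2 held the most (25.6%), and among members it held 18%.

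The density of the windows was then measured in libraries that had no part in choosing them. Each library was held out in turn, and windows with 12 or more regions shared by the other 5 libraries were chosen anew, which gave 26 to 41 windows and included 24 or 25 of the 25 dense windows. In held-out cold replicates 1, 2 and 3 such windows carried 34, 40.7 and 34.1 THSs each, against 12.5, 14.6 and 12.5 in the other windows. In held-out control replicates 1, 2 and 3 they carried 43.9, 40.0 and 30.4 THSs, against 17.9, 19.1 and 12.3. The ratio was 2.72, 2.79 and 2.74 in the cold libraries and 2.45, 2.09 and 2.48 in the control libraries. On the log2 scale it was 1.34 ± 0.157 (SD, n = 6 libraries), positive in 6 of 6. The exact sign-flip permutation p of 0.0312 is the smallest that 6 libraries allow, and after adjustment over 4 measures it was 0.125. The log2 ratio was 2.15 with the score threshold at the median of all lists (4.04-fold to 4.94-fold) and 1.75 without THSs under 217 bp (2.42-fold to 4.64-fold). When windows were chosen from the 3 libraries of the other group alone, the ratio was still 1.85 to 2.45. The 6 held-out values share most of their window lists, so they are not independent of each other. Held-out libraries found 83.7 to 98.7% of the regions shared by the other 5 in such dense windows, and their THSs there entered the ratio. A ratio above 1 was thus largely built in by the choice, and the p-value gives no independent evidence for dense windows.

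How often a held-out library found the shared regions did not differ detectably between dense and other windows. Of regions shared by the other 5 libraries, cold replicates 1, 2 and 3 held 93.2%, 92.3% and 83.7% in dense windows, against 92.7%, 91.5% and 85.1% in the others. Control replicates 1, 2 and 3 held 98.5%, 98.7% and 90% in dense windows, against 97.6%, 95.9% and 90.9%. The mean difference was 0.435 ± 1.52 percentage points (SD, n = 6 libraries, exact sign-flip permutation p = 0.594, adjusted p = 0.594), a measure added after the data were seen. It ran from −1.40 to 2.87 points over the libraries. Without control replicate 2 the mean was −0.052, and it was 1.63 (exact p = 0.0312) when THSs under 217 bp were left out of all lists.

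**Figure D4:**
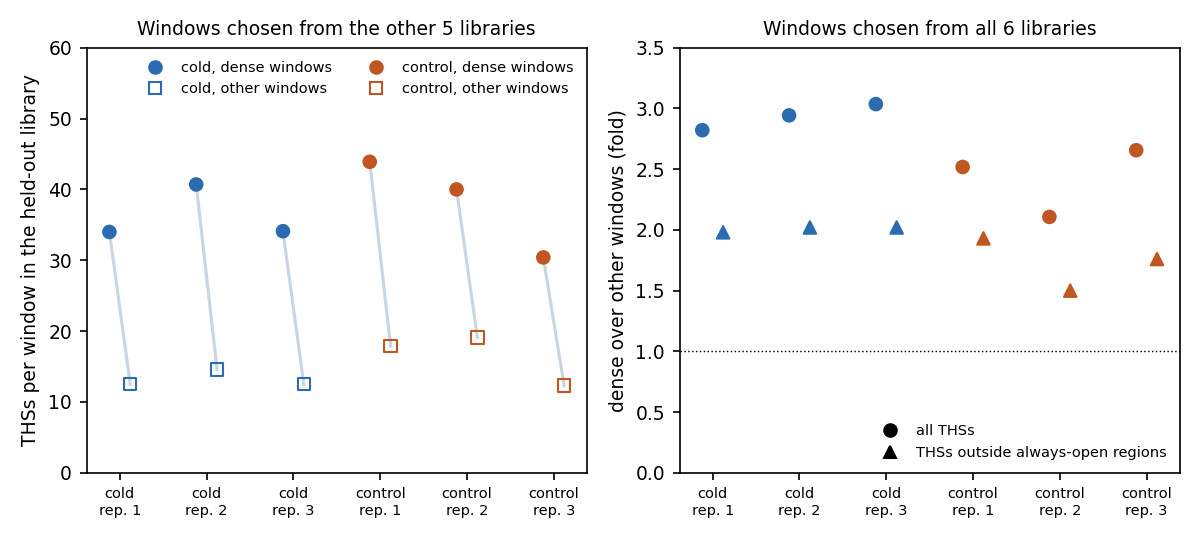
Left, THSs per window in each held-out library, in windows chosen from the other 5 libraries (circles, dense; squares, other windows). Right, ratio of THSs per dense window to THSs per other window with windows chosen from all 6 libraries, for all THSs (circles) and for THSs outside always-open regions (triangles). Each held-out library has 2.09 to 2.79 times as many THSs per dense window, and on the right the cold libraries (left) lie above the control libraries.

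Pairs of libraries overlapped more within dense windows than elsewhere. The Jaccard index, the length shared by a pair of lists over the length covered by either, averaged 0.359 for cold pairs, 0.355 for cold with control and 0.467 for control pairs inside dense windows. In the other windows the means were 0.240, 0.211 and 0.270. Always-open regions raise this index by the choice of the windows. Without them it was 0.140 for cold pairs, 0.141 for cold with control and 0.232 for control pairs in dense windows, against 0.0867, 0.0836 and 0.144 in the others. The index was higher in dense windows for 15 of 15 pairs both with and without always-open regions. Regions of 4 and 5 libraries were also more frequent in dense windows (2.75-fold and 3.67-fold). The index without always-open regions is therefore not free of the choice of the windows. Pairs share libraries and lists of unequal length lower the index, so no test was made.

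The number of THSs in dense windows did not separate cold from control. Cold replicates 1, 2 and 3 had 888, 1078 and 966 THSs there, and control replicates 1, 2 and 3 had 1127, 1009 and 819. The means were 977.3 ± 95.5 in cold and 985 ± 155.4 in control (SD, n = 3 each, two-sided exact permutation test over libraries, p = 1, and 1 after adjustment over 6 measures), and the difference of −7.67 depended on the libraries and on the width limit. It turned positive without cold replicate 1, control replicate 1 or control replicate 2 (37.0, 63.3 and 4.33), was −58.0 without cold replicate 2 and −90.7 without control replicate 3, and was −97.0 with cold replicate 1 alone. Without THSs under 217 bp it was −371.7 (exact permutation p = 0.2). With 3 libraries against 3 such a test cannot give a p below 0.1. Always-open regions, which the rule required in every list, held 423, 532 and 519 of these THSs in cold replicates 1, 2 and 3. In control replicates 1, 2 and 3 they held 415, 404 and 417. The choice of the windows thus fixes part of each number, and the test cannot show that the windows were unchanged in cold. In whole leaves, a site open in fewer cells and a site less open in each cell cannot be told apart.

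The share of a library's THSs that fell into dense windows did not overlap between the groups. It was 7.75, 8.06 and 8.30% in cold replicates 1, 2 and 3 and 6.98, 5.91 and 7.33% in control replicates 1, 2 and 3 (means of 8.04 ± 0.272% and 6.74 ± 0.743%, SD, n = 3 each). All 3 cold libraries exceeded the control libraries, and the cause was not tested. By exact permutation p was 0.1, the lowest value that can be reached (adjusted p = 0.3). As a ratio of THSs per dense window to THSs per other window, the cold libraries had 2.82, 2.94 and 3.04 and the control libraries 2.52, 2.11 and 2.66 (2.93 ± 0.108 and 2.43 ± 0.286, exact permutation p = 0.1, adjusted p = 0.3). Each library has the same 377 always-open members whatever the length of its list. They held 423, 532 and 519 THSs in cold replicates 1, 2 and 3 and 415, 404 and 417 in control replicates 1, 2 and 3. The shortest list on chr1 to chr19, that of control replicate 3 (11169 THSs), had a lower share than each cold library. How list length or split THSs bear on the share was not tested. With lists of equal length the difference in share was 0.690 percentage points in place of 1.30 (exact permutation p = 0.2), and without THSs under 217 bp it was 2.99 points (exact permutation p = 0.1). The difference in ratio, 0.506, was 0.274 and 1.20 in these settings. With cold replicate 1 alone the differences were 1.01 points and 0.394.

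Beyond the always-open regions, dense windows held further THSs. Their number in dense windows was 465, 546 and 447 in the cold libraries and 712, 605 and 402 in the control libraries (486 ± 52.7 and 573 ± 157.5 as means with SD, n = 3 each, p = 0.5 by exact permutation, adjusted p = 0.6). The difference of −87.0 was −17.5 without control replicate 1, −172.5 without control replicate 3, and −108.0 with cold replicate 1 alone. It was −6.67 with lists of equal length and −325.0 without THSs under 217 bp. Per window they were 1.98, 2.02 and 2.02 times as frequent in dense as in other windows in cold replicates 1, 2 and 3, and 1.93, 1.5 and 1.76 times in control replicates 1, 2 and 3. The means were 2.01 ± 0.0223 in cold and 1.73 ± 0.212 in control (SD, n = 3 each). This measure was added after the data were seen, and its exact permutation p was 0.1, unadjusted and the smallest possible. The difference of 0.277 was 0.165 without control replicate 2 and 0.126 (exact permutation p = 0.5) with lists of equal length. It was 0.604 without THSs under 217 bp and 0.450 with the score threshold at the median of all lists (exact permutation p = 0.1 for both).

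The length covered by THSs in dense windows overlapped between the groups. The covered length was 462.4, 289.7 and 237.6 kb in cold replicates 1, 2 and 3 and 642.2, 612.2 and 429.9 kb in control replicates 1, 2 and 3 (329.9 ± 117.7 and 561.4 ± 114.9 kb, SD, n = 3 each). Cold replicate 1 lay within the control range, and the difference did not pass an exact permutation test (p = 0.2, adjusted p = 0.3). The median THS width there was 404, 208.5 and 188 bp in the cold libraries and 443, 473 and 400 bp in the control libraries (266.8 ± 119.2 and 438.7 ± 36.7 bp, exact permutation p = 0.2, adjusted p = 0.3). Both measures were low in the 2 libraries that had narrow THSs along the whole genome. With cold replicate 1 alone against the control libraries the differences were −99.1 kb and −34.7 bp, in place of −231.6 kb and −171.8 bp.

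Single dense windows rarely separated the groups. The mean of the cold libraries was above that of the control libraries in 12 windows and below it in 13, and the ratio of the means ran from 0.667 to 1.19 (median 0.980). Every cold library lay below every control library in 1 of 25 windows (4.0%, exact binomial 95% interval 0.101 to 20.4%, for counting error only), against 13.7% of all 864 windows. That window was chr14:2000001-2500000, with 28, 33 and 27 THSs in the cold libraries and 55, 43 and 34 in the control libraries (29.3 ± 3.21 and 44.0 ± 10.5, SD, n = 3 each). The cold libraries all exceeded the control libraries in 0 of 25 windows, against 1.27% of all windows. By the rule each dense window holds 12 or more regions with a THS in every library, so part of each number is fixed. This bears on how often the groups can separate, so the lower share than over all windows is only a description. No single window can give an exact p below 0.1. When THSs under 217 bp were left out of all lists, 6 dense windows had every cold library below, against 26.9% of all windows, and without control replicate 3 there were 4, against 40.9%.

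**Figure D5:**
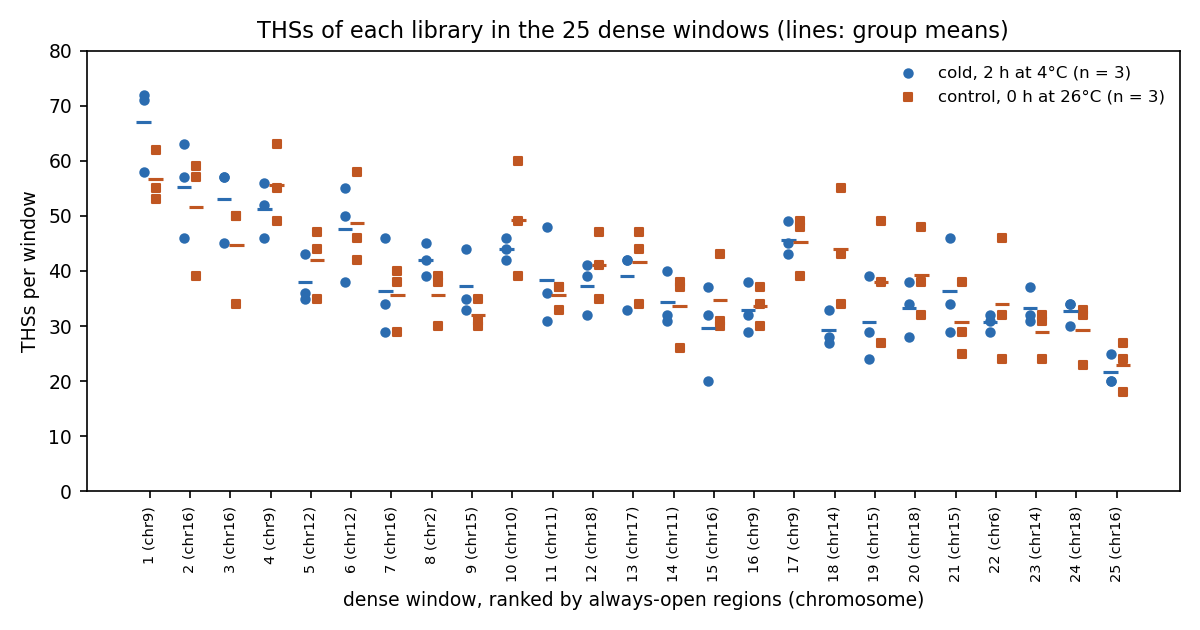
THSs in each of the 25 dense windows (vertical axis), ranked by their number of always-open regions, in 3 cold libraries (circles) and 3 control libraries (squares), with lines for group means. The groups overlap in 24 of 25 windows, and in window 18 on chr14 the cold libraries (27 to 33) lie below the control libraries (34 to 55).

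Few members were open in 1 group only. Of 1866 members, 6 had a THS in each cold library while lacking one in the control libraries (0.322%, exact binomial 95% interval 0.118 to 0.699%), against 0.189% of all regions on chr1 to chr19. The opposite pattern was found in 20 members (1.07%, 0.656 to 1.65%), against 1.03% of all regions. The control-only share was thus close to the background, and the interval of the cold-only share included its background. Always-open regions cannot show either pattern. Over the 1489 members that were not always-open, the shares were 0.403% and 1.34%, against 0.203% and 1.11% over chr1 to chr19. That base still holds many regions which cannot show either pattern, since both need a THS in exactly 3 libraries. There were 159 such members, with 6 cold-only and 20 control-only, and 2671 such regions in the other windows, with 69 and 391. Per such region the cold-only share was higher among members and the control-only share was lower. Both counts rested on single libraries, as did the shares over all regions. When cold replicate 1 was left out, 72 members were cold-only (4.04%, against 2.80% of all regions) and 58 were control-only (3.26%, against 2.60%). Cold-only members numbered 10 (0.579%, against 0.520%) without cold replicate 2 and 14 (0.801%, against 0.640%) without cold replicate 3. They numbered 13 (0.780%, against 0.436%) without control replicate 1 and 11 (0.635%, against 0.424%) without control replicate 2. The cold-only share of members was thus above that of all regions in each of these settings, but with the score threshold at the median of all lists it was below, with 2 members (0.172%, against 0.270%). Control-only members numbered 34 (1.97%, against 1.62%) without cold replicate 2. Without control replicates 1, 2 and 3 they numbered 38, 49 and 70 (2.28, 2.83 and 3.89%), against 2.94, 2.76 and 4.07% of all regions, on either side of the background.

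The 6 cold-only members lay in 6 different windows and were narrow, with a median width of 262 bp. The highest percentile in the weakest library was that of chr16:1423598-1423855, which scored 7.17, 14.8 and 11.2 in cold replicates 1, 2 and 3. The second was chr9:14865259-14865518 (7.87, 14.4 and 8.15 in cold replicates 1, 2 and 3), in the densest window. They lay 351 and 294 bp from an always-open region, which was also the nearest site with a control THS. The third, chr16:10930477-10930736, had scores of 3.85, 5.60 and 9.08 and a control THS 520 bp away. The other 3 were chr12:12345914-12346344, chr6:9572764-9573027 and chr9:9819670-9820394, with lowest percentiles of 42.3, 21.9 and 15.9. Of the 6, 3 lay within 1000 bp of an always-open region. When THSs under 217 bp were left out of all lists, 1 member kept a cold-only pattern or gained one (0.0652% of 1533, against 0.0385% of all regions).

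The 20 control-only members were wider, with a median of 678 bp, and were spread over 17 windows. The one with the highest percentile in its weakest library was chr10:15500983-15501283, which scored 21.9, 20 and 7.84 in control replicates 1, 2 and 3. It lay 5342 bp from the nearest cold THS and 109267 bp from an always-open region. The second was chr15:13298299-13298735, with scores of 5.30, 5.62 and 5.67, and it lay 3915 bp from a cold THS. The next were chr18:27145290-27146362 (7.20, 4.81 and 5.09) and chr11:15027123-15027778 (14.8, 10.7 and 5.00), each about as far from a cold THS, 1224 and 1014 bp. The last 2 of the 6 named were chr16:9759635-9760334 and chr9:9511568-9512473, 7936 and 2701 bp from a cold THS. Only 1 of the 20 lay within 1000 bp of an always-open region, and the median distance was 18429 bp, against 2547 bp for the 6 cold-only members. Cold replicates 2 and 3 had narrow THSs in their whole lists (medians of 184 and 171 bp) and more THSs per always-open region. Whether this bears on the differences in width and distance was not tested.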

How the data were processed

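ATAC-seq libraries were made from leaves of 3 cold and 3 control replicates. Per the study, the authors used Cutadapt for trimming and BWA for alignment to grape 12X, retained unique alignments, dropped duplicates and called THSs in each library with MACS2 (q threshold of 0.05, extension of 200 bp). Their tool versions were not given in the sources used here. One list per library was deposited, with the position of each THS and a score. The deposited score was taken as the −log10 of the q-value, since the lowest score of each list lay between 1.30 and 1.31. The lists hold no read counts, so the read-count test of the study was not run. Unique mapping leaves out repeated sequence, and calls depend on the depth and fragment length of a library.

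THSs sharing at least 1 bp were merged (Python 3.11.15, numpy 2.4.6, pandas 2.3.3), which gave the same 44710 regions as bedtools 2.31.1. Regions were placed in windows by their midpoint, and coordinates count from 1. In simulated lists, 10 of 10 planted windows were recovered and 0 others were called. The planted windows were built to meet the rule, so this checks the code and not the choice of windows in the real lists. Groups were compared by exact permutation of library labels (20 assignments), and dense with other windows by exact sign-flip permutation over libraries (64 patterns), with Benjamini-Hochberg adjustment over 6 and 4 measures. Intervals are exact binomial ones (scipy 1.17.1). Neighbouring regions are not independent, and a sign-flip p measures agreement between libraries, not the spread between windows. Plots used matplotlib 3.10.9. The 10 windows with the most always-open regions, the leading always-open region of the first 5, and up to 6 cold-only and control-only members with the highest percentile in their weakest library are named. The members and lists were chosen with earlier results of these data known. Genome sequence and gene annotation were not used here, so no sequence or gene is given.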

Additional observations from a re-analysis of the deposited data

How the results depend on the processing

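The number of dense windows (25, with 377 always-open regions) depended on its definition. It was 99 (779 regions) with 6 or more in windows of 250000 bp, 4 (145) with 24 or more in 1000000 bp, 45 (586) with 10 or more and 9 (176) with 15 or more. It was 9 (150) with the score threshold at the median of all lists (4.13), 8 (119) without THSs under 217 bp, and 1 (17) when each library had to cover 50% of a region. Shifting the windows by 250000 bp gave 25 windows, which touched 17 of the 25. Leaving out 1 library gave 26 to 41 windows (392 to 638 regions), the most without cold replicate 3. The 4 libraries with wide THSs alone, a setting chosen after the data were seen, gave 75 (1174). This setting asks fewer libraries to agree and also leaves out those with narrow THSs, and the cause of the higher number was not tested.

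The difference of cold and control THS number (−7.67) was 68.3 with lists of equal length, 25.3 with windows of 15 or more, −371.7 without THSs under 217 bp and −90.7 to 63.3 without 1 library. For THSs outside always-open regions (−87.0) it was −325.0 to −6.67 over these and −172.5 to −17.5 without 1 library. The difference in share (1.30) was 0.690 to 2.99, and without 1 library 0.880 to 1.59. The percentile difference of always-open regions (−0.876) was 0.447 with 15 or more, −2.68 with shifted windows and −1.06 to −0.711 without 1 library. The width difference (39.0 bp) was 87.2 bp with 15 or more and 25.3 to 47.7 bp without 1 library. Cold-only members (6) numbered 2 with the stricter score (0.172%, against 0.270% of all regions) and 1 without THSs under 217 bp (0.0652%, against 0.0385%). Without 1 library they numbered 8 (0.444%, against 0.313%) to 72 (4.04%, against 2.80%). Control-only members (20) numbered 38 without THSs under 217 bp (2.48%, against 2.1%). They numbered 24 (1.37%, against 1.43%) to 70 (3.89%, against 4.07%) without 1 library. Windows with every cold library below (1) numbered 6 without THSs under 217 bp (against 26.9% of all windows) and 0 with lists of equal length (against 5.09%). Without control replicate 3 there were 4 (against 40.9%), and leaving out any other library gave 1 (against 14.2 to 20.7%). The held-out log2 ratio (1.34) was 1.19 to 2.15 over the other settings and 1.31 to 1.40 without 1 library, where 5 libraries cannot give a p below 0.0625. The held-out share difference (0.435) was 1.63 without THSs under 217 bp and −0.052 to 0.802 without 1 library. Some of these settings also changed how many THSs or libraries entered, and the cause of the shifts was not tested. Of 182 alternative values, 132 held their direction and call or, for counts, moved by less than 1.5 times, although group tests here cannot pass 0.05.

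The libraries were not paired by replicate number, since over members the deviations from the group means had correlations of 0.0477, 0.0428 and 0.00309 within the 3 numbers. With the replicate block the difference in share (1.30 percentage points) had an exact sign-flip p of 0.25, the smallest that 3 pairs allow, and no group measure gained a call.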
